A study of Schizosaccharomyces pombe with 6 samples.

Results

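Replication protein A (RPA) was examined over 4 genes of thiamine (vitamin B1) synthesis and uptake in fission yeast, thi9, nmt1, thi2 and thi4. The genes were chosen from earlier results on the same arrays. Their members are the tiling probes whose middle lay in the gene or within 500 bp of it, which gave 44 of the 42641 nuclear probes. In all, 4295 protein-coding genes had at least 2 probes by the same rule. Because measured values entered the choice, the levels and strain differences of these 4 genes are given as a description, with no test.

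RPA was recovered by chromatin immunoprecipitation (IP) of its subunit Ssb1 and set against the input DNA of the same sample in the other dye of an Agilent tiling array. The strains were cdc25-22 without rad3, called rad3Δ, with 3 arrays, and cdc25-22, called WT as in the labels, with 3 arrays. The cdc25-22 allele, which both strains carried, is temperature-sensitive and stops cells before mitosis, and rad3 encodes the ATR-family checkpoint kinase. Cells of both strains grew in EMM6S, a minimal medium, spent 4 h at 36.5 °C and, once back at 25 °C, received 6 mM hydroxyurea, an inhibitor of the enzyme that makes deoxyribonucleotides. Neither the harvest time nor the supplements of the medium are given in the sources used here. No array of an IP without antibody or from an untagged strain was used here. The labels describe the extracted molecule as RNA although the channels are called IP and input, and they name the input of rad3Δ replicate 3 cdc25-23.

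Thiamine diphosphate is the cofactor of enzymes such as pyruvate decarboxylase, pyruvate dehydrogenase and transketolase. Fission yeast makes thiamine by joining a pyrimidine, built with the product of nmt1, to a thiazole, built with that of thi2, in a step carried out by the product of thi4, and it can also import thiamine through the transporter encoded by thi9. These genes are known for strong transcription without thiamine in the medium and repression with it, for which the nmt1 promoter is widely used to switch genes on and off; their RNA was not measured here.

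The 250 bases before each annotated start are shown because each stretch holds 1 probe, because the genes share a control by thiamine as background knowledge, and because a TATA motif stood at nearly the same place in all 4. The sequences are from RefSeq, build ASM294v3, plus strand, at chrI:1482169-1482418 for thi9, chrIII:1838165-1838414 for nmt1, chrII:3940276-3940525 for thi2 and chrI:1589683-1589932 for thi4. Capitals mark each TATAAA or TATATA on either strand, including overlapping ones.
thi9: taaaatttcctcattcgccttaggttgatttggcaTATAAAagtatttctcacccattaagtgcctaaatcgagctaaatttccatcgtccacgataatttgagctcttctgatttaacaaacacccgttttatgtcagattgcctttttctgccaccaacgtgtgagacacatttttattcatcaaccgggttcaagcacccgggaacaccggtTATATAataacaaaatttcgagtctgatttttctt
nmt1: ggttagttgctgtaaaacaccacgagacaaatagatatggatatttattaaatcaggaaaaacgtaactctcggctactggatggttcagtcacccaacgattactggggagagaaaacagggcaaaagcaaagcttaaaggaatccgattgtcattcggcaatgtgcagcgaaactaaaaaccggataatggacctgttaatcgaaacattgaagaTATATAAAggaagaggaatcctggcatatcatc
thi2: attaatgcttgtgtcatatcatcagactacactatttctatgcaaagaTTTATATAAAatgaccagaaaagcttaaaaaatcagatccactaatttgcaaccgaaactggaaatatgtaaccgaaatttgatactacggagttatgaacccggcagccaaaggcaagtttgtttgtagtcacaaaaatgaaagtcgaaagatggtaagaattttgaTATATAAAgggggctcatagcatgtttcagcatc
thi4: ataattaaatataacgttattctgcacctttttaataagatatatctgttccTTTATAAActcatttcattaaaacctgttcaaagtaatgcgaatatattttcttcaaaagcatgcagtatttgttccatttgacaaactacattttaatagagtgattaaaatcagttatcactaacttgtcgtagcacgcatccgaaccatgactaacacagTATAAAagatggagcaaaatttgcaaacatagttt

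Both motifs were searched on both strands of the 250 bases. The motif nearest the start had its first base 35 bases before it in thi9, 31 in nmt1, 32 in thi2 and 35 in thi4, in each case on the strand of the gene. All 4 genes thus held TATAAA or TATATA on the gene strand with the first base 25 to 40 bases before the start, as did 509 of 5111 promoters of this length (9.96%). The count for the 4 genes follows from the positions just given, so setting it beside that share is no test. Either motif anywhere on either strand was common, in 56.4% of promoters. A match is a run of letters in this window and nothing more. The G+C content of the stretches was 37.6% in thi9, 40% in nmt1, 34.4% in thi2 and 28.8% in thi4, against a median of 32.0% over all promoters.

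Each value below is a log2 ratio of IP to input, with the array's median probe set to 0, averaged over the probes of a gene and its flanks. Such levels are relative and cannot show a change shared by the whole genome. Errors are SDs over 3 arrays per strain. Arrays with the same replicate number shared a slide, and every rad3Δ array was at position 4 and every WT array at position 2 of its slide, which means that a strain effect and a position effect cannot be told apart. Nothing in the labels says that replicates came from separate cultures, so a p-value reflects the spread among these 6 samples only, which may be technical. The strain labels were checked at rad3: the median log2 input of its 33 probes was between -7.01 and -5.09 on the rad3Δ arrays, with 9 to 11 probes well above background in input, and between -0.45 and -0.24 on the WT arrays. Over all probes, 99.07% to 99.94% were well above background in input and 95.3% to 99.4% in IP, and 43 of the 44 probes of the 4 genes were well above background in both channels of all 6 arrays. The correlation of the ratio across probes was 0.580 to 0.670 among rad3Δ arrays, 0.531 to 0.620 among WT arrays and 0.520 to 0.615 for the rad3Δ and WT arrays of 1 slide.

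RPA stood high over thi9 in WT and much less so in rad3Δ, stood above the genome median over thi2 in both strains, lay near the median over nmt1 and below it over thi4. The strain differences were -0.59 for thi9, -0.23 for nmt1, -0.16 for thi2 and -0.01 for thi4 on the log2 scale, with a median of -0.20 over the 4 genes and -0.04 over all genes. Both thi9 and thi2 were above 0 on all 6 arrays, as were 23% of all genes, and thi4 was below 0 on all 6, as were 20.2%. For nmt1 alone every rad3Δ array was below every WT array, which held for 13.8% of all genes. These shares are the background of the counts; the genes were chosen from the same values, so nothing further is read from them.

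**Figure D1:**
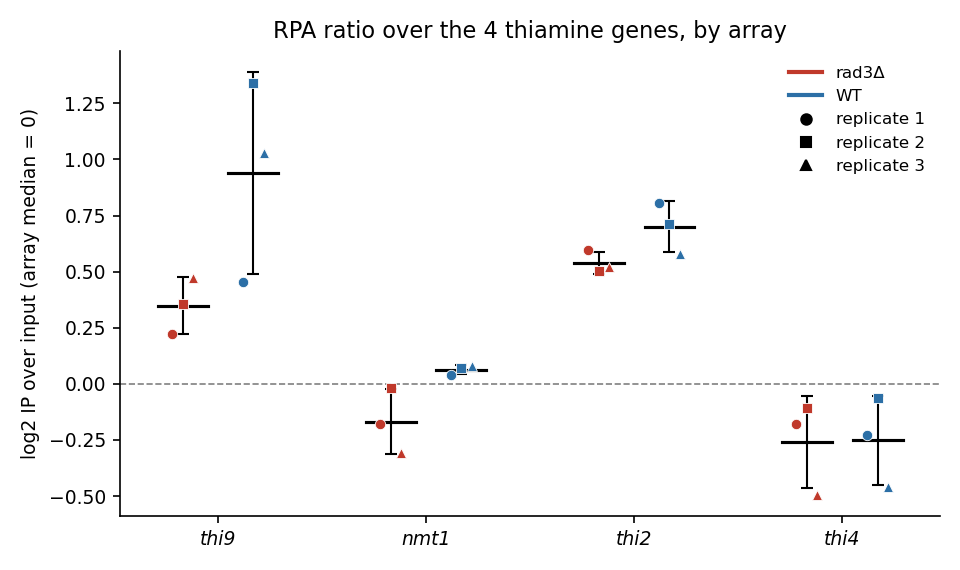
Log2 IP over input (vertical axis, array median at 0) of thi9, nmt1, thi2 and thi4 with 500 bp flanks, with rad3Δ left of WT, a point per array shaped by replicate, and bars for mean ± SD of 3 arrays. The WT arrays of thi9 span 0.45 to 1.34 and reach down to the rad3Δ arrays at 0.22 to 0.47, while the nmt1 arrays do not overlap.

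Among these genes the transporter gene came first in level in WT, whereas thi2 came first in rad3Δ. The thi9 gene (SPAC9.10, chromosome I, 1482419 to 1484752, plus strand) had 11 probes in its window, and its product is a plasma membrane carrier that brings thiamine into the cell together with protons. It had 0.22, 0.36 and 0.47 on rad3Δ replicates 1, 2 and 3, and 0.45, 1.34 and 1.027 on WT replicates 1, 2 and 3. WT replicates 2 and 3 were far above all rad3Δ arrays, but WT replicate 1 was slightly below rad3Δ replicate 3, so the strains overlapped. The means were 0.35 ± 0.13 in rad3Δ and 0.94 ± 0.45 in WT, a ratio 1.51-fold lower in rad3Δ. With normexp background correction they were 0.15 in rad3Δ and 0.98 in WT. Taken slide by slide, the differences were -0.23, -0.99 and -0.56 on slides 1, 2 and 3, so rad3Δ was the lower of each pair. Without WT replicate 1 the difference was -0.84 and without WT replicate 2 it was -0.33, so leaving out WT replicate 2 alone moved it by more than 1.5 times. Among 4295 genes thi9 ranked 640th in rad3Δ and 6th in WT, and its difference was the 7th most negative.

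The thi9 difference ran along the whole gene and beyond it. All 11 probes had a higher mean in WT, and at 4 of them no measured rad3Δ array reached a WT array. Over all probes measured on every array this held for 7.058%. The rules differ, because 1 of the 4, the probe 2172.5 bp into the gene, was not measured on rad3Δ replicate 2. Probe means ranged from -0.23 to 0.80 in rad3Δ and from 0.44 to 1.30 in WT. With each gene split at its middle, the first part of thi9 had 0.26 ± 0.21 in rad3Δ and 0.96 ± 0.50 in WT, and the second part 0.22 ± 0.39 in rad3Δ and 0.88 ± 0.58 in WT (5 and 3 probes). The averages of these parts were therefore close within each strain, although single probes varied. The SD over the means of the 11 window probes was 0.38 in rad3Δ and 0.27 in WT. The highest probe of rad3Δ lay 123.5 bp past the gene end, with 0.80 ± 0.41 in rad3Δ and 1.04 ± 0.34 in WT, near the methionine tRNA gene SPATRNAMET.02, which lies 227 bp from thi9. The highest probe of WT was 1787.5 bp into the gene, with 0.76 ± 0.63 in rad3Δ and 1.30 ± 0.83 in WT.

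The window edges of thi9 did not mark a boundary. The first probe inside the window, 182.5 bp before the start, had 0.73 in rad3Δ and 1.09 in WT, and the first outside, at 539.5 bp, had 0.00 in rad3Δ and 0.57 in WT. Past the end, the probe at 329.5 bp had 0.33 in rad3Δ and 0.77 in WT, and that at 570.5 bp had 0.04 in rad3Δ and 0.44 in WT. From 500 to 2000 bp upstream, which runs into met26, the mean was 0.23 ± 0.16 in rad3Δ and 0.91 ± 0.28 in WT with no overlap of arrays. Over the same distance downstream it was 0.23 ± 0.13 in rad3Δ and 0.54 ± 0.04 in WT, again with no overlap. How often such stretches separate over the whole genome was not computed, here or for the gene parts and flanks below. The upstream neighbour met26, a homocysteine methyltransferase gene on the same strand, had 0.13 ± 0.13 in rad3Δ and 0.71 ± 0.29 in WT over its own window, and every rad3Δ array was below every WT array. Its window holds the start of the WT region that led to the choice of thi9, so its result in the test over all genes is not reported. The downstream neighbour SPAC9.11, of unknown function, had 0.17 ± 0.13 in rad3Δ and 0.35 ± 0.05 in WT and did not pass the test over all genes (limma adjusted p = 0.166).

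**Figure D2:**
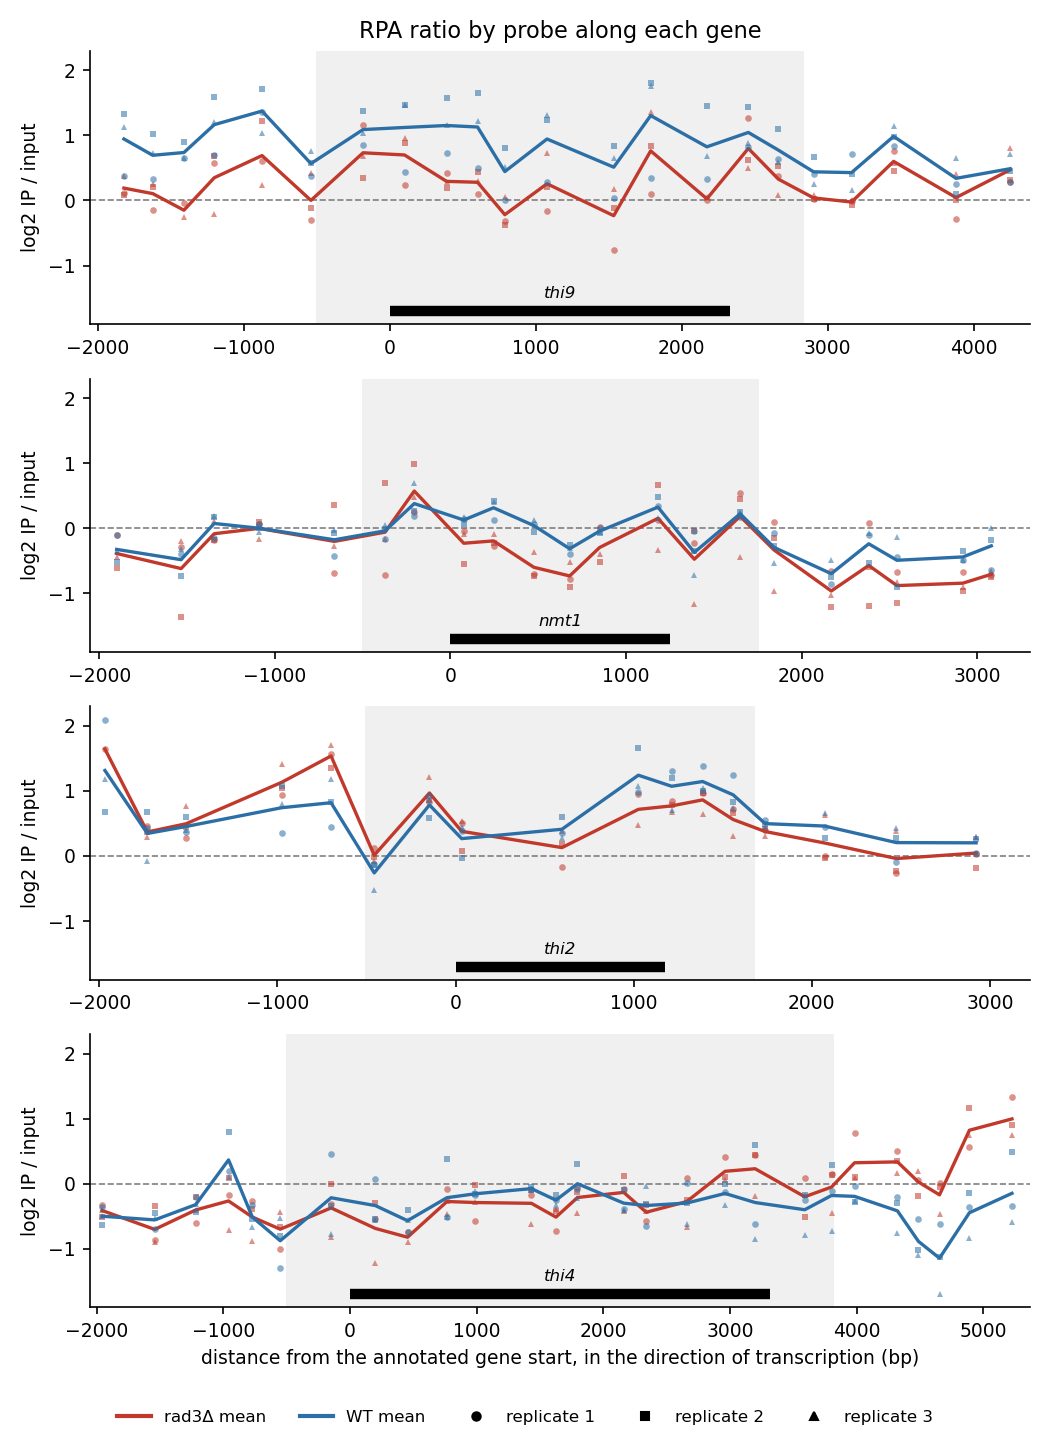
Log2 IP over input (vertical axes) of each probe against its distance in bp from the annotated gene start (horizontal axes), with points for arrays, lines for strain means, a black bar for the gene and a grey band for its 500 bp flanks. Over thi9 the WT line lies above the rad3Δ line at all 11 probes in the band, over thi2 the lines cross within the gene, and past thi4 the rad3Δ line lies above the WT line.

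The pyrimidine gene nmt1 (SPCC1223.02, chromosome III, 1838415 to 1839664, plus strand) encodes the enzyme that makes the hydroxymethylpyrimidine phosphate of thiamine, and had 10 probes. It had -0.18, -0.02 and -0.31 on rad3Δ replicates 1, 2 and 3, and 0.04, 0.07 and 0.08 on WT replicates 1, 2 and 3. All rad3Δ arrays were below 0 and all WT arrays just above it, so the strains did not overlap, and rad3Δ was the more scattered of them. The means were -0.17 ± 0.15 in rad3Δ and 0.06 ± 0.02 in WT, a ratio 1.17-fold lower in rad3Δ. In order of level nmt1 ranked 3107th in rad3Δ and 1805th in WT.

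Along nmt1 the array averages of the strains separated over both parts of the gene and overlapped over its 500 bp flanks. The first part of the gene had -0.34, -0.50 and -0.18 on the rad3Δ arrays and 0.11, 0.14 and 0.23 on the WT arrays (3 probes, difference -0.50). The second part had -0.21, -0.25 and -0.42 on the rad3Δ arrays and -0.02, 0.05 and -0.07 on the WT arrays (3 probes, difference -0.28). In both parts every rad3Δ array average was below every WT array average. Probe by probe, this held at 4 of the 10 window probes, and at 7.058% of all probes measured on every array. In the second part it held only 679.5 bp into the gene, while the arrays overlapped at 850 and 1182.5 bp. The 500 bp upstream had 0.26 ± 0.54 in rad3Δ and 0.17 ± 0.19 in WT, and the 500 bp downstream -0.15 ± 0.56 in rad3Δ and -0.07 ± 0.15 in WT, both overlapping. Farther out the means were not all alike. From 500 to 2000 bp downstream they were -0.72 ± 0.26 in rad3Δ and -0.41 ± 0.11 in WT (difference -0.31), with overlapping arrays. Over the same distance upstream they were -0.26 ± 0.07 in rad3Δ and -0.18 ± 0.06 in WT. With the probes of the gene alone the nmt1 difference was -0.39, more than 1.5 times that with the flanks, and with the flanks it was -0.15 with arrays centred on the mode and -0.42 with normexp background correction.

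The highest nmt1 probe of both strains was the one in the promoter shown above, 205.5 bp before the start, with 0.57 ± 0.38 in rad3Δ and 0.38 ± 0.27 in WT. Just inside and outside the window, the probe 372 bp upstream had -0.06 in rad3Δ and -0.04 in WT, and that 660.5 bp upstream had -0.20 in rad3Δ and -0.18 in WT. Past the end, the probe at 401.5 bp had 0.18 in rad3Δ and 0.22 in WT, and that at 594.5 bp had -0.33 in rad3Δ and -0.29 in WT. The levels were thus nearly the same in both strains at these 4 probes. The neighbours hel2, a ubiquitin ligase gene, and gut2, a glycerol-3-phosphate dehydrogenase gene, did not pass the test (limma adjusted p = 0.253 and 0.259), though gut2 was called lower without rad3Δ replicate 1 (-0.39, adjusted p = 0.0297).

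The thiazole gene thi2 (SPBC26H8.01, chromosome II, 3940526 to 3941699, plus strand) had 8 probes in its window, 3 of them in the gene. It had 0.60, 0.50 and 0.52 on rad3Δ replicates 1, 2 and 3, and 0.81, 0.71 and 0.58 on WT replicates 1, 2 and 3. All 6 arrays were well above 0, and only rad3Δ replicate 1 reached into the WT values, just above WT replicate 3. The means were 0.54 ± 0.05 in rad3Δ and 0.70 ± 0.11 in WT, a ratio 1.12-fold lower in rad3Δ, and rad3Δ was the lower on 3 of 3 slides. In order of level thi2 ranked 299th in rad3Δ and 22nd in WT.

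The thi2 window joined stretches that differed in opposite directions. Its 500 bp upstream (2 probes) had 0.47, 0.43 and 0.57 on the rad3Δ arrays and 0.39, 0.22 and 0.17 on the WT arrays. Every rad3Δ average was thus above every WT average, but of the single probes only that 456.5 bp before the start separated. That at 146.5 bp overlapped. Of the 8 window probes, 3 had every measured rad3Δ array below every WT array, and 1 had the reverse. Over all probes measured on every array the former held for 7.058%. The second part of the gene (2 probes) had 0.39, 0.18 and 0.43 on the rad3Δ arrays and 0.67, 1.13 and 0.68 on the WT arrays. The probe 1026.5 bp into the gene was flagged on rad3Δ replicate 2, so 0.18 is the other probe alone. That other probe, at 597.5 bp, had -0.17, 0.18 and 0.38 on the rad3Δ arrays and 0.35, 0.60 and 0.28 on the WT arrays, which overlap. The 500 bp downstream had 0.73 ± 0.16 in rad3Δ and 1.05 ± 0.24 in WT. The whole-window difference therefore averages over a change of sign, and over the 3 probes of the gene alone it was -0.30. In both differences rad3Δ replicate 2 lacked the flagged probe that the other arrays had. The whole-window difference was -0.08 with arrays centred on the mode and -0.53 with normexp background correction.

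At its edges, thi2 had 0.01 in rad3Δ and -0.26 in WT at the probe 456.5 bp upstream, and 1.54 in rad3Δ and 0.82 in WT at the next probe out, 699 bp upstream. That probe lies toward the aspartate tRNA gene SPBTRNAASP.04, 1229 bp from thi2. Past the end, the probe at 385.5 bp had 0.56 in rad3Δ and 0.94 in WT, and that at 565.5 bp had 0.38 in rad3Δ and 0.50 in WT. The highest rad3Δ probe of the window was that in the promoter, 146.5 bp before the start, with 0.97 ± 0.22 in rad3Δ and 0.78 ± 0.18 in WT. The highest WT probe lay 1026.5 bp into the gene, with 0.72 ± 0.34 in rad3Δ, where replicate 2 was not measured, and 1.24 ± 0.36 in WT. The convergent neighbour sec9, a protein transport gene whose window shares probes with thi2, had 0.39 ± 0.08 in rad3Δ and 0.56 ± 0.0046 in WT. Its test result is not reported because of the shared probes. On the other side tda1 had 0.17 ± 0.22 in rad3Δ and -0.06 ± 0.06 in WT and did not pass the test (limma adjusted p = 0.117).

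The joining enzyme is encoded by thi4 (SPAC23H4.10C, chromosome I, 1589933 to 1593248, plus strand), a bifunctional thiamine-phosphate diphosphorylase and hydroxyethylthiazole kinase, with 15 probes. It had -0.18, -0.11 and -0.49 on rad3Δ replicates 1, 2 and 3, and -0.23, -0.06 and -0.46 on WT replicates 1, 2 and 3. All arrays were below 0, and each rad3Δ array lay close to the WT array of its own slide. The means were -0.26 ± 0.21 in rad3Δ and -0.25 ± 0.20 in WT, and -0.14 in rad3Δ and -0.15 in WT without replicate 3 of both strains. The difference of -0.01 had no settled sign, and rad3Δ was the lower on 2 of 3 slides. In order of level thi4 ranked 3486th in rad3Δ and 3488th in WT.

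Along thi4 the first part of the gene had -0.45 ± 0.21 in rad3Δ and -0.27 ± 0.10 in WT, and the second part -0.11 ± 0.21 in rad3Δ and -0.23 ± 0.23 in WT, both with overlapping arrays. The annotated 3′ untranslated region is 1592 bp long and overlaps cdb4, a gene on the other strand, so the second part covers both. From 500 to 2000 bp past the gene end the probes had 0.54, 0.38 and 0.25 on the rad3Δ arrays and -0.35, -0.40 and -0.87 on the WT arrays. There every rad3Δ array was above every WT array, outside the window that defines the gene. At the edges, the probe 149.5 bp upstream had -0.37 in rad3Δ and -0.22 in WT, and that 551.5 bp upstream had -0.70 in rad3Δ and -0.88 in WT. Past the end, the probe at 486 bp had -0.05 in rad3Δ and -0.18 in WT, and that at 668 bp had 0.32 in rad3Δ and -0.19 in WT. The windows of both neighbours share probes with thi4, so their test results are not reported. The centromere protein gene cnl2 had -0.52 ± 0.26 in rad3Δ and -0.35 ± 0.11 in WT, and cdb4 had -0.17 ± 0.15 in rad3Δ and -0.25 ± 0.22 in WT.

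A ratio can differ through either channel, so each channel was examined on its own, as log2 signal relative to the median of that channel on that array. The IP of thi9 was 0.43, 0.48 and 0.84 on the rad3Δ arrays and 0.79, 1.65 and 1.31 on the WT arrays, a difference of -0.66. Its input was 0.28 ± 0.12 in rad3Δ and 0.33 ± 0.04 in WT, a difference of -0.06. The IP of nmt1 was 0.22, 0.33 and 0.01 on the rad3Δ arrays and 0.55, 0.47 and 0.40 on the WT arrays, with no overlap, while its input was 0.39 ± 0.07 in rad3Δ and 0.43 ± 0.11 in WT. For these genes the IP thus differed by more than the input.

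For thi2 the pattern was different. Its IP was 0.97 ± 0.20 in rad3Δ and 1.02 ± 0.17 in WT, a difference of -0.05, and its input was 0.47 ± 0.22 in rad3Δ and 0.35 ± 0.18 in WT, a difference of 0.12, and both channels overlapped between strains. Single arrays set which channel of thi2 differed more: without rad3Δ replicate 2 the input difference was -0.005 and the IP difference -0.15, and without WT replicate 1 they were 0.0078 and -0.13. For thi4 the IP was -0.50 ± 0.19 in rad3Δ and -0.40 ± 0.20 in WT, and the input was -0.20 ± 0.17 in rad3Δ and -0.13 ± 0.13 in WT. On rad3Δ replicate 2, 1 flagged probe each of thi9, thi2 and thi4 was left out of both channels. Its means there therefore cover fewer probes than those of the other arrays. Mean input at that probe on the other rad3Δ arrays was 1.72 for thi9, -0.54 for thi2 and 2.14 for thi4. How much of the input differences came from the missing probes was not tested.

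**Figure D3:**
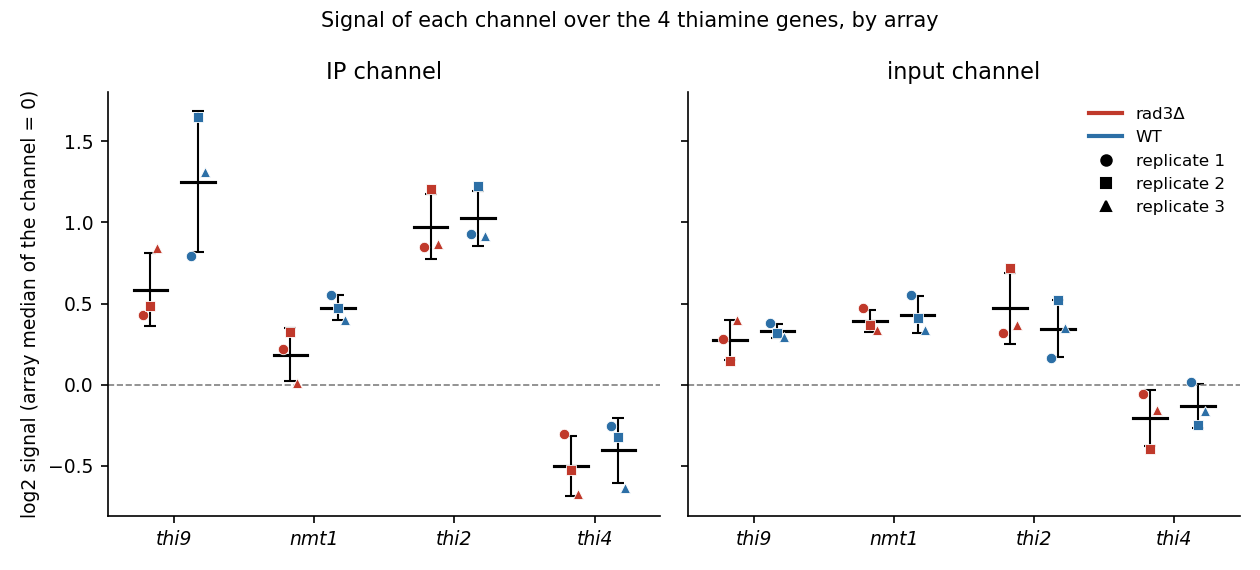
Log2 signal of the IP channel (left panel) and the input channel (right panel), each relative to its array median (vertical axis), for the 4 genes, with rad3Δ left of WT, points for arrays and bars for mean ± SD of 3 arrays. The IP of thi9 averages 0.59 in rad3Δ and 1.25 in WT while its input averages 0.28 in rad3Δ and 0.33 in WT.

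Genes with the most similar values over the 6 arrays were found by Euclidean distance between gene values, as a description. Nearest to thi9 were SPCC576.19C (distance 0.33), the glyceraldehyde-3-phosphate dehydrogenase gene tdh1 (0.41) and the septum glucanase gene eng1 (0.46). Nearest to nmt1 were hnt1 (0.11), urb1 (0.13) and not2 (0.14), and nearest to thi2 were the DNA repair gene rhp14 (0.25), tam9 (0.28) and apc10 (0.29). Nearest to thi4 were alt1 (0.12), rbm17 (0.13) and cut9 (0.15). Genes of the lists were left out of this search. The nearest gene of thi9 lay farther from it than those of nmt1, thi2 and thi4 did from theirs.

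The other thiamine-related genes were taken from a list, and 9 of them could be measured. Besides genes of thiamine metabolism they include the regulators thi1 and thi5, the vitamin B6 carrier gene bsu1 and the thiamine-repressed phosphatase gene pho4. In the test over all genes 609 were higher in rad3Δ (14.2%) and 155 lower (3.61%), or 806 higher and 43 lower with arrays centred on the mode, and with the replicate number as a block, since same-numbered arrays share a slide, 813 were higher and 540 lower. Of the 9 thiamine genes 2 were higher in rad3Δ and 0 lower, with a median difference of 0.00, or 2 higher and 1 lower with the block. With normexp background correction limma called 0 of all genes in either direction (426 higher and 404 lower at an unadjusted p under 0.05), so no call below held under it. Their levels were mostly above the array median: 6 of 9 passed that test in rad3Δ, where 29.5% of all genes did, and 6 of 9 in WT, where 26.8% did. Their differences ran both ways, from -0.33 at bsu1 to 0.54 at thi5.

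The regulator thi5, a zinc-finger transcription factor gene, had 0.57, 0.32 and 0.24 on rad3Δ replicates 1, 2 and 3, and 0.05, 0.02 and -0.56 on WT replicates 1, 2 and 3. Every rad3Δ array was above every WT array, which held for 16.9% of all genes, and WT replicate 3 was far below the others. It was higher in rad3Δ by 0.54 ± 0.11 (SE, limma adjusted p = 0.00396). The call was lost without replicate 3 of either strain (0.41, adjusted p = 0.0733). The acid phosphatase gene pho4, whose enzyme is repressed by thiamine, had 0.44, 0.04 and 0.34 on the rad3Δ arrays and 0.01, -0.15 and -0.14 on the WT arrays. These arrays did not overlap either, and pho4 was higher in rad3Δ by 0.37 ± 0.11 (SE, limma adjusted p = 0.0415). It lost its call without rad3Δ replicate 1 (0.27, adjusted p = 0.133) and without replicate 3 of either strain (0.31, adjusted p = 0.273).

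The remaining 7 genes did not pass. The transcription factor gene thi1, the activator of the thiamine-repressed genes, had 0.01 ± 0.10 in rad3Δ and 0.16 ± 0.08 in WT (difference -0.15, limma adjusted p = 0.272), with every rad3Δ array below every WT array. The vitamin B6 carrier gene bsu1 had -0.22 ± 0.05 in rad3Δ and 0.11 ± 0.27 in WT (difference -0.33, limma adjusted p = 0.0738). It was called lower with the replicate number as a block (adjusted p = 0.0227) and without WT replicate 1, the one low WT array (-0.48, adjusted p = 0.00722). The thiamine diphosphokinase gene tnr3, whose enzyme makes the active cofactor, had 0.25 ± 0.07 in rad3Δ and 0.23 ± 0.06 in WT. Among the phosphomethylpyrimidine kinase genes, thi20 had 0.16 ± 0.09 in rad3Δ and 0.27 ± 0.10 in WT, thi201 0.20 ± 0.11 in rad3Δ and 0.20 ± 0.12 in WT, and SPCC18B5.05C 0.28 ± 0.11 in rad3Δ and 0.36 ± 0.08 in WT. The windows of thi20 and thi201 overlap, so these are not separate measurements. SPBC530.07C, of the TENA/THI family, had 0.47 ± 0.17 in rad3Δ and 0.32 ± 0.17 in WT.

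**Figure D4:**
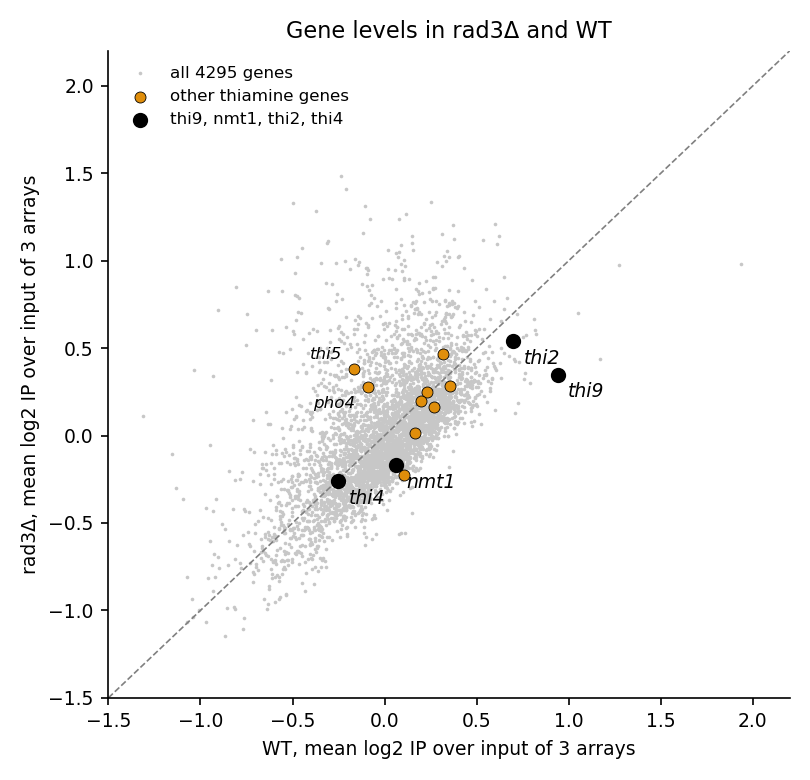
Mean log2 IP over input of 3 rad3Δ arrays (vertical axis) against 3 WT arrays (horizontal axis) for 4295 genes (grey), with thi9, nmt1, thi2 and thi4 in black, other thiamine genes in orange and a dashed line of equal values. The point of thi9 lies far right of the line at 0.35 in rad3Δ and 0.94 in WT, thi4 lies on it, and thi5 and pho4 lie above it.

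A second transporter gene was added after its values had been seen. SPCC794.03, annotated as a thiamine transporter (chromosome III, 245927 to 247871), had 0.12, 0.46 and 0.33 on the rad3Δ arrays and 0.62, 0.90 and 0.85 on the WT arrays. Every rad3Δ array was below every WT array, and the difference of -0.49 was close to that of thi9. It ranked 774th in rad3Δ and 11th in WT. The gene SPBC1604.04, annotated as a thiamine pyrophosphate transporter, had 0.03 ± 0.24 in rad3Δ and 0.05 ± 0.18 in WT.

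Of 7 measured genes of enzymes that use thiamine diphosphate, 1 was higher in rad3Δ and 0 lower, or 1 higher and 1 lower with the replicate block. The pyruvate dehydrogenase subunit gene pdb1 had 0.78, 1.01 and 1.19 on the rad3Δ arrays and -0.15, 0.04 and -0.30 on the WT arrays, far apart in all replicates. It was higher in rad3Δ by 1.13 ± 0.12 (SE, limma adjusted p = 5.05e-05). The transketolase gene tkt1 had -0.48 ± 0.29 in rad3Δ and -0.24 ± 0.27 in WT and did not pass (limma adjusted p = 0.17). It was called lower with the block (adjusted p = 0.0249) and without WT replicate 2 (-0.33, adjusted p = 0.045). The acetolactate synthase gene ilv1 had -0.63 ± 0.32 in rad3Δ and -0.46 ± 0.21 in WT (limma adjusted p = 0.303), and the pyruvate decarboxylase gene pdc202 had 0.14 ± 0.15 in rad3Δ and 0.00 ± 0.22 in WT (0.392).

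**Figure D5:**
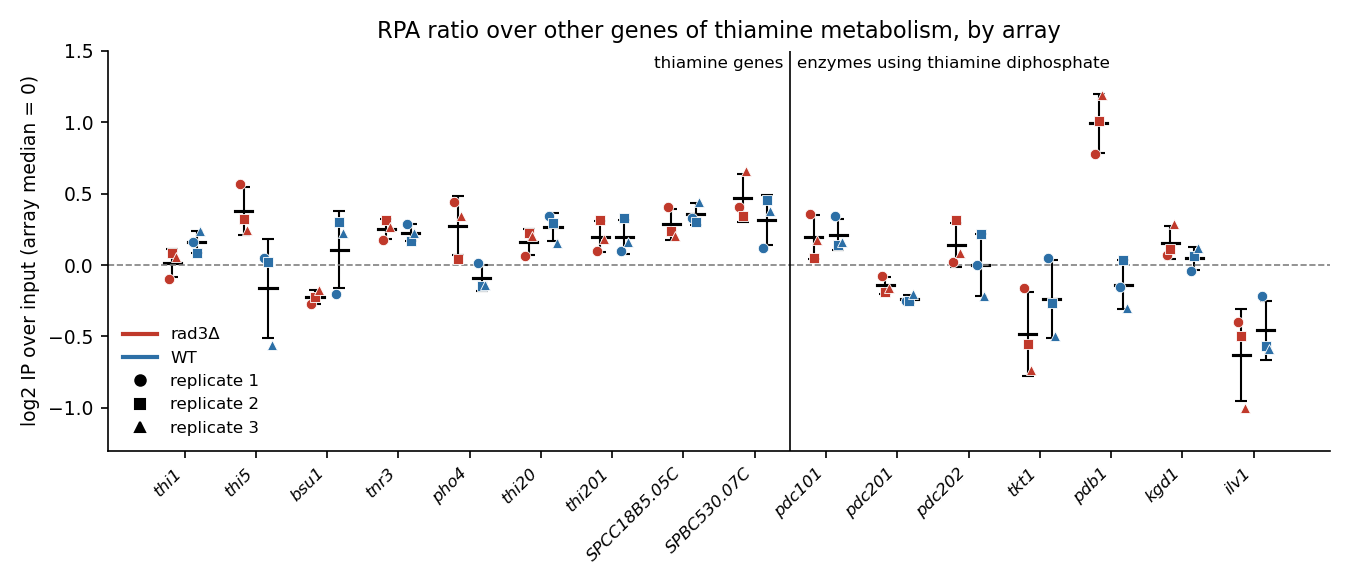
Log2 IP over input (vertical axis, array median at 0) of the other thiamine genes and of enzymes that use thiamine diphosphate, with rad3Δ left of WT, a point per array and bars for mean ± SD of 3 arrays. The arrays of thi5, pho4 and pdb1 do not overlap and are higher in rad3Δ, with pdb1 at 0.78 to 1.19 in rad3Δ and -0.30 to 0.04 in WT.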

How the data were processed

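The 4 genes, the gene lists and the tests were chosen with earlier results of these data known. The deposited scanner files hold spot intensities from Agilent Feature Extraction (version 10.7.3.1 in the submitters' processing notes). The headers give 10.7.1.1 for replicate 1 of both strains and 10.7.3.1 for the other arrays. Its processed intensity had background and spatial trend removed and a linear dye scaling but no lowess, per the file headers. The deposited LogRatio, a log10 value of red over green, and the deposited series matrix, a linear ratio of IP over input, were used as a check and as an alternative. Replicates 1 and 2 of both strains carried the IP in green, and replicate 3 carried it in red.

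Control spots and outlier-flagged spots (12 to 432 per array) were left out. On rad3Δ replicate 2 this took out 1 window probe each of thi9, thi2 and thi4, so its means there rest on fewer probes. Log2 ratios of IP to input were centred on each array's median, without loess or quantile steps. Median intensities were 1007 to 1145 for IP and 969 to 1106 for input. Precision is limited by the number of arrays. Probe coordinates (build Spombe:NCBI:Feb2002 in the headers) were compared with ASM294v3 by correlating probe length with G+C content: all 364 windows outside chromosome I beyond 3722495 matched within 24 bp. All genes reported lie in that part.

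Gene values were means over the probes in the gene and 500 bp flanks, for genes with 2 or more probes. They were fitted with limma 3.58.1 (R 4.3.3) with a mean per strain and a dye term. Tests were two-sided, with Benjamini-Hochberg adjustment at 0.05 over all 4295 genes. The fit was also run on simulated data with independent arrays and no slide effect. That run cannot show how the fit behaves when arrays share slides. Deviations of same-numbered arrays, which share a slide per the file headers, correlated at 0.61, 0.53 and 0.61, so the numbers pair the arrays and a fit with the slide as a block was also made. Named genes were the 4 genes, the other listed thiamine genes, called or most different enzymes, neighbouring genes and the 3 nearest genes by distance. Of the listed thiamine genes thi21 and thi22 were not matched. Alternatives were gene probes only, normexp, series matrix values, mode centring, a filter on dim probes, medians, no dye term, the block and leaving out arrays; an adjustment for input level was chosen after seeing the data.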

Additional observations from a re-analysis of the deposited data

How the results depend on the processing

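The strain differences of thi9, nmt1 and thi2 kept their negative sign under all 15 alternatives run, and that of thi4 kept it under 7 of 15, ranging from -0.06 to 0.13. These 15 were not all separate checks. The replicate block cannot move a difference in this balanced design, and the filter on dim probes left all of them unchanged. The series matrix holds the same ratios apart from flagged probes. Leaving out single arrays, the difference ranged from -0.84 to -0.33 for thi9, -0.30 to -0.16 for nmt1, -0.21 to -0.12 for thi2 and -0.06 to 0.03 for thi4. Leaving out replicate 3 of either strain equals leaving out both, since the dye term then takes up the lone red IP array. Probes of the gene alone gave -0.32 for nmt1 in rad3Δ, -0.39 for its difference and -0.46 for its IP difference, and 0.34 for thi2 in rad3Δ and -0.30 for its difference. With normexp, nmt1 was -0.37 in rad3Δ with a difference of -0.42, and thi2 was 0.21 in rad3Δ with a difference of -0.53. With the median of probes thi2 was 0.65 in rad3Δ and 0.80 in WT. With median spot minus background signals the IP difference was -1.01 for thi9, -0.62 for nmt1 and -0.38 for thi4.

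Other thiamine genes higher in rad3Δ, 2 in the fit reported, numbered 1 with gene probes only, 1 with probe medians, and 0 with normexp, with no dye term and without replicate 3 of both strains; leaving out single arrays gave 0 to 2 higher and 0 to 1 lower. With the replicate block 1 was lower, bsu1. Of all genes, those higher numbered 0 with normexp, 376 with no dye term and 280 without replicate 3 of both strains, and 280 to 615 without single arrays. Those lower numbered 53 with gene probes only, 0 with normexp, 43 with mode centring, 540 with the replicate block, 27 with no dye term and 15 without replicate 3 of both strains, and 15 to 222 without single arrays. Under normexp limma gave 426 higher and 404 lower genes at an unadjusted p under 0.05, and thi5 (adjusted p = 0.0871), pho4 (0.265) and pdb1 (0.175) lost their calls. Without the dye term thi5 (0.0596) and pho4 (0.0937) lost theirs, and pho4 did so with gene probes only (0.143) and probe medians (0.0819). The cause of these shifts was not tested. The 3 arrays per strain limit all of these comparisons.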
